A study of Mus musculus with 12 samples.

Results

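The genes described here are 10 genes linked to FoxO transcription factors and the kinase SGK1, out of 19938 genes measured in mouse epiblast stem cells (EpiSCs). They are Sgk1, Cited2, Ccng2, Klhl24, Bmf, Foxo1, Foxo3, Foxo4, Irs2 and Pik3ip1. The set was chosen by name and selected on measured values, namely the difference between CHIR99021 and untreated cells, in which Sgk1 and Cited2 were higher while Ccng2, Klhl24 and Bmf were lower. That comparison is therefore given below as a description with no test. Each gene had exactly 1 probe with a single gene name on the array.

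EpiSCs are pluripotent cells that resemble the embryo's epiblast after implantation; here they were of 129 genetic background, and no line name was given. All cells were kept without serum for 12 h, although a medium with 10% fetal bovine serum is recorded for every sample. The 4 groups of 3 arrays were untreated cells, cells with 3 µM CHIR99021 (2 h), cells with 2 µM XAV939, and cells with the combination at the same doses. The time with XAV939 is 2 h in the sample labels and 4 h in the series text, and which holds is not known. CHIR99021 inhibits the kinase GSK3 and so stabilises beta-catenin, and XAV939 inhibits tankyrase, which stabilises Axin and lowers beta-catenin. The study asked which genes respond to these compounds. Values are the deposited expression per probe on a log2 scale, whose base was inferred from their range, and a change is a difference of group means on that scale. The labels do not tell whether replicate arrays stem from different cultures or from 1, and the p-values thus cover a spread that may be technical.

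FoxO proteins are transcription factors that are active when insulin and growth factor signalling is low. The kinases AKT and SGK1, which act below PI3K, phosphorylate FoxO proteins and keep them out of the nucleus. FoxO factors are known to switch on genes that slow the cell cycle, favour cell death or feed back on insulin signalling, such as Ccng2, Bmf and Irs2. GSK3 is itself a target that AKT inhibits by phosphorylation, so an inhibitor of GSK3 acts on one branch of the same pathway.

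Promoter sequences are shown for genes that differed in opposite directions with CHIR99021, so that their letters can be compared. The RefSeq table of build GRCm38.p6 holds 15 start sites for 8 of the genes; Klhl24 and Foxo4 have no entry. Each run below is the 250 bases before a start site, read 5′ to 3′ on the gene's strand. The most upstream start in the table is shown for each of 4 genes, with a further Sgk1 start. Capitals mark the letters CTTTGA or their reverse complement TCAAAG, a core of sites bound by TCF/LEF factors, the DNA-binding partners of beta-catenin. The Sgk1 windows are chr10:21881934-21882183 and chr10:21978422-21978671, both on the plus strand. That of Cited2 is chr10:17722978-17723227 on the plus strand, that of Ccng2 is chr5:93267323-93267572 on the plus strand, and that of Bmf is chr2:118549687-118549936 on the minus strand.
Sgk1, most upstream start: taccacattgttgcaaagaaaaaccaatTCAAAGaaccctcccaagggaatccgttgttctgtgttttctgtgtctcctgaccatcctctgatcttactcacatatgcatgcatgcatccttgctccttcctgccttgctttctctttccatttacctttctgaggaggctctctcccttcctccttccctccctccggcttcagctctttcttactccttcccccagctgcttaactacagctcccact
Sgk1, second start: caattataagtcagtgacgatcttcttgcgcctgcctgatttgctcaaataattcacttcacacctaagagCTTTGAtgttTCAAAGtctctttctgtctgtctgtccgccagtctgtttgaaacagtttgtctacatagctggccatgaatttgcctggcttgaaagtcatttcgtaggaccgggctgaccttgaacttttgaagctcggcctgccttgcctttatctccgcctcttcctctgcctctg
Cited2: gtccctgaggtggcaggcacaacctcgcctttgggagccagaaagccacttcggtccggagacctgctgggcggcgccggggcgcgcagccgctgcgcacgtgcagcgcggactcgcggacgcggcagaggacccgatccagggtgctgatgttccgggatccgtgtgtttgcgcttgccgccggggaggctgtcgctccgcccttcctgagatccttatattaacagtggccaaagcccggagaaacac
Ccng2: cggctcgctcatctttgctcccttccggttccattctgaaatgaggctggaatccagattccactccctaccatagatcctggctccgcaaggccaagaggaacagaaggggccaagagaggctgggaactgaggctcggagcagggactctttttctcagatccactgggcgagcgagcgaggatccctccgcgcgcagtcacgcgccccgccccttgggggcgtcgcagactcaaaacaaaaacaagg
Bmf, most upstream start: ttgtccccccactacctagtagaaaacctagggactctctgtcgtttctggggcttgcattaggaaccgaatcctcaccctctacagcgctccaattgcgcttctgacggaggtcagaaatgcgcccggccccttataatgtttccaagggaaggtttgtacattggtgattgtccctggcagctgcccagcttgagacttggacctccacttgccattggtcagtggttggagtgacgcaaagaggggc
The letters CTTTGA or TCAAAG were found in 2 of the 15 windows, both of Sgk1, in a search of both strands. Sgk1 has 6 starts in the table. The 2 windows shown for it are the ones that hold these letters, and the other 4, which are not shown, do not. Which of the 6 starts these cells use was not measured. The first Sgk1 window holds TCAAAG at position -222, counted from the start, and the second holds CTTTGA at -179 and TCAAAG at -169. Of all 32851 windows of this length in the table, 13.8% hold these letters. The FoxO recognition letters GTAAACA or their reverse complement TGTTTAC were in none of the 15 windows, and in 3.17% of all windows. GC content was 48.4% and 46.4% in the Sgk1 windows shown, within a range from 43.6% to 70.4% over its 6 windows, 66.8% for Cited2, 59.6% for Ccng2 and 54.0% for Bmf. A match is a description of letters in these windows, not evidence of binding.

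The labelled cell type was checked against its markers. A rough measure of background was taken from 1190 receptor genes of smell and pheromone sensing (95th percentile of their levels, 4.93). All 10 epiblast markers, such as Pou5f1, Sox2 and Otx2, lay above it. Their means ranged from 8.16 to 11.62. Of other cell types, 4 of 8 markers of naive pluripotent cells, 3 of 8 of fibroblasts, 3 of 6 of endoderm and 4 of 4 of neural cells were above it, with list medians between 4.78 and 5.33. Over the 4 groups, the mean of the naive list ranged from 4.89 to 5.01, and the other lists ranged less. Of the 10 genes described here, 9 were above the background measure and Pik3ip1, at a mean of 4.80, was below it. Axin2, a Wnt target that serves as a check of the compounds, had means of 7.00 ± 0.04 (SD, n = 3) under CHIR99021, 6.44 ± 0.08 under both, 5.94 ± 0.15 in untreated cells and 5.72 ± 0.20 under XAV939. Its untreated arrays, from 5.77 to 6.04, overlapped those with XAV939 alone, from 5.55 to 5.94.

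Sgk1 encodes a kinase of the AKT family that was first known as a gene induced by serum and glucocorticoids. The 3 untreated arrays read 6.51, 6.77 and 6.52 (probe 10362073), and the CHIR99021 arrays 7.41, 7.36 and 7.34. With XAV939 they read 6.45, 6.27 and 6.61, and with both compounds 7.06, 6.74 and 6.84. All CHIR99021 arrays lay above all others. The arrays with both compounds lay above those with XAV939 alone and overlapped the untreated ones. In order of group means Sgk1 stood at 7.37 ± 0.04 (SD, n = 3) with CHIR99021, 6.88 ± 0.16 with both, 6.60 ± 0.15 untreated and 6.45 ± 0.17 with XAV939. Neighbours from both compounds down to untreated, and from untreated down to XAV939, overlapped.

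Cited2 encodes a nuclear protein that binds the coactivators CBP and p300 and lowers transcription by HIF-1, and it is also a known FoxO target. The untreated arrays read 8.98, 9.03 and 9.05 (probe 10361828), and those with CHIR99021 9.80, 9.73 and 9.61. The XAV939 arrays read 8.88, 8.85 and 8.85, and those with both compounds 9.36, 9.17 and 9.19. No pair of groups overlapped in Cited2. The order of means was 9.71 ± 0.09 (SD, n = 3) with CHIR99021, 9.24 ± 0.10 with both, 9.02 ± 0.04 untreated and 8.86 ± 0.02 with XAV939, the same order as in Sgk1 and Axin2.

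Ccng2 encodes cyclin G2, an atypical cyclin linked to slowed cell division and a known FoxO target. It read 6.44, 6.25 and 6.26 untreated (probe 10523297), 5.91, 5.91 and 5.80 with CHIR99021, 6.36, 6.0 and 6.14 with XAV939, and 5.79, 5.94 and 5.74 with both compounds. Every array with CHIR99021, with or without XAV939, lay below every array without it. The groups within each of those sets overlapped.

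Klhl24 encodes an adaptor of a cullin ubiquitin ligase, known for its part in keratin turnover in skin. It read 9.66, 9.72 and 9.79 untreated (probe 10434302), 9.18, 9.30 and 9.35 with CHIR99021, 9.55, 9.65 and 9.62 with XAV939, and 9.15, 9.25 and 9.35 with both. The 6 arrays with CHIR99021 were again below the 6 without it. The XAV939 arrays were all just below the untreated ones, while the arrays with CHIR99021 and with both overlapped.

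Bmf encodes a BH3-only protein that binds BCL2 proteins and promotes cell death. It read 6.54, 6.66 and 6.82 untreated (probe 10486112), 6.11, 6.24 and 6.12 with CHIR99021, 6.44, 6.68 and 6.49 with XAV939, and 6.11, 6.04 and 6.39 with both. Here too the arrays with CHIR99021 stayed below those without it, with replicate 3 of both compounds nearest to the gap.

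**Figure D1:**
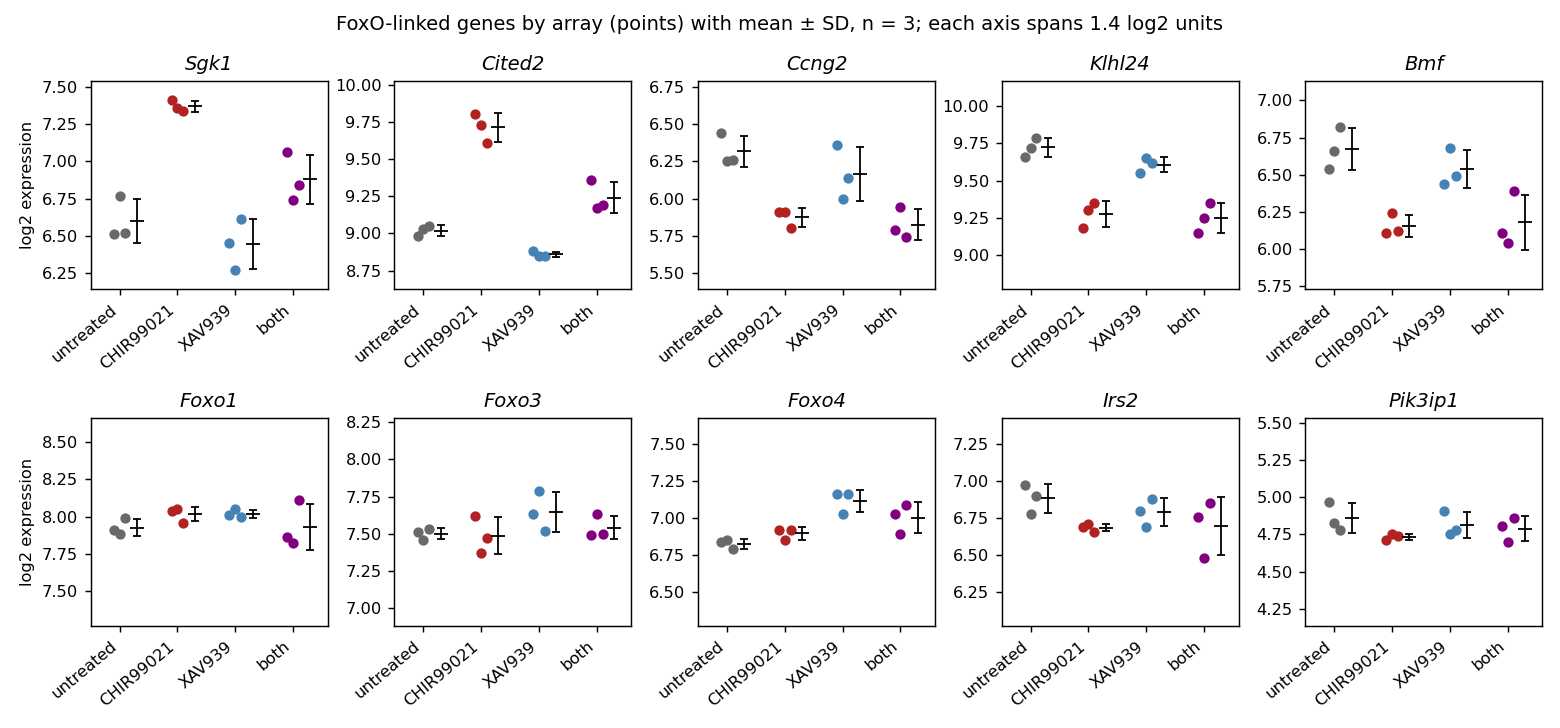
Log2 expression (vertical axis) of the 10 genes in each array (points), by treatment (horizontal axis), with mean ± SD of the 3 arrays of a group beside the points; each panel spans the same range of log2 units around its own centre. Sgk1 and Cited2 are highest with CHIR99021 and intermediate with both compounds, and Ccng2, Klhl24 and Bmf are low in both groups given CHIR99021.

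The genes of the FoxO factors themselves had small differences between groups. Foxo1, at 7.92 ± 0.06 (SD, n = 3) untreated, stood at 8.02 ± 0.05 with CHIR99021, 8.02 ± 0.03 with XAV939 and 7.93 ± 0.15 with both. Foxo3 stood at 7.50 ± 0.04, 7.49 ± 0.12, 7.65 ± 0.14 and 7.54 ± 0.08 in the same order. Foxo4 stood at 6.83 ± 0.03, 6.90 ± 0.04, 7.12 ± 0.08 and 7.00 ± 0.10. The Foxo4 arrays read 6.84, 6.85 and 6.79 untreated and 7.16, 7.03 and 7.16 with XAV939, so that these groups did not overlap. These probes measure RNA, and the location or phosphorylation of FoxO proteins was not measured.

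Irs2 encodes an adaptor of the insulin receptor and Pik3ip1 a membrane protein that inhibits PI3K; both act above FoxO and have been described as FoxO targets. Irs2 read 6.97, 6.78 and 6.90 untreated and 6.69, 6.71 and 6.66 with CHIR99021, with no overlap, and averaged 6.79 ± 0.10 (SD, n = 3) with XAV939 and 6.70 ± 0.19 with both. Pik3ip1 ranged from 4.70 to 4.97 over all arrays.

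With CHIR99021 alone, Sgk1 was higher than untreated by 0.77 (SE 0.10), a fold of 1.71 with a 95% interval from 1.47 to 1.98. Cited2 was higher by 0.70 (SE 0.08), a fold of 1.62. The changes of Ccng2, Klhl24 and Bmf were -0.45 (SE 0.09), -0.45 (SE 0.08) and -0.52 (SE 0.10). Irs2 had a change of -0.20, Pik3ip1 of -0.12, Foxo1 of 0.09, Foxo4 of 0.07 and Foxo3 of -0.01. The groups did not overlap for 3 of the 10 genes in the upward direction and 5 in the downward direction, against 8.09% and 8.25% of all genes. Sgk1, Cited2, Ccng2, Klhl24 and Bmf, 5 of these 8, were chosen for their direction here; Foxo4 (higher), Irs2 and Pik3ip1 (lower) were not, but nothing is read from the count since the comparison chose the set.

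The response to CHIR99021 was measured a second time in arrays that the choice of genes did not use, as both compounds against XAV939 alone. Cited2 rose by 0.38 (SE 0.08), a fold of 1.30 with a 95% interval from 1.17 to 1.45, and was the 1 of the 10 genes that passed (limma adjusted p = 0.0497). In that direction 0.100% of all genes were called, and 0.236% in either. Sgk1 had a change of 0.43 (SE 0.10; 95% interval 0.22 to 0.65) that did not pass over all genes (limma adjusted p = 0.114). Klhl24 had a change of -0.36 (SE 0.08; limma adjusted p = 0.0748), Bmf of -0.36 (SE 0.10; adjusted p = 0.206) and Ccng2 of -0.34 (SE 0.09; adjusted p = 0.193). The 95% intervals of these 3 lay between -0.57 and -0.14, so each excluded 0, as did that of Sgk1.

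All 5 of these genes had groups that did not overlap in these arrays, 2 higher and 3 lower. Of all genes, 6.94% did so upward and 7.32% downward. At an unadjusted p under 0.05, limma found 2 of the 10 genes higher and 3 lower, against 9.69% of all genes in either direction. The 5 other genes had changes between -0.12 and -0.02 with intervals that included 0 (limma adjusted p between 0.641 and 0.956). The median change of the 10 genes was -0.10 and that of all genes -0.00.

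The call of Cited2 in this comparison sat at the threshold. In the fit to the compared groups alone it was lost (limma adjusted p = 0.138). It ended without any 1 of the 12 arrays (limma adjusted p between 0.0514 and 0.144), with quantile and cyclic loess normalization (0.0843 and 0.0838), and over all 21 alternatives the adjusted p ranged from 0.019 to 0.144, while the change stayed between 0.32 and 0.42. Klhl24 passed in 4 of 21 alternatives, among them quantile normalization (limma adjusted p = 0.0369).

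**Figure D2:**
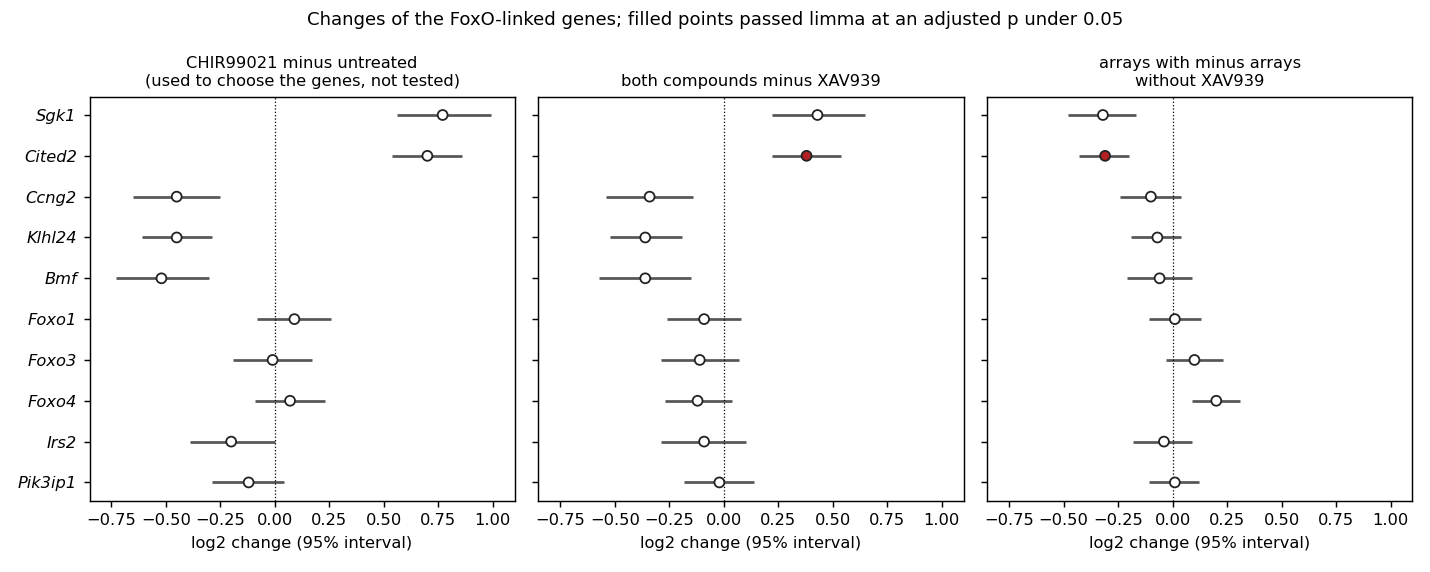
Changes in log2 expression (horizontal axis, points with 95% intervals from limma) of the 10 genes (rows) in 3 comparisons; the left panel was used to choose the genes and has no test, and filled points passed at an adjusted p under 0.05. Cited2 is the gene that passed in the middle panel (0.38) and in the right panel (-0.31).

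The response to XAV939 was read from all 12 arrays, as the 6 with XAV939 against the 6 without it, with equal weight for each group. This contrast is orthogonal to the one that chose the genes. Cited2 fell by 0.31 (SE 0.05), a fold of 0.804 with a 95% interval from 0.744 to 0.870 (limma adjusted p = 0.0316), and every XAV939 array lay below every array with the same CHIR99021 treatment. Downward, 0.120% of all genes were called, and 0.331% in either direction. Sgk1 had a similar change of -0.32 (SE 0.07; 95% interval -0.48 to -0.17) that did not pass (limma adjusted p = 0.0617), and Axin2 fell by 0.40 (SE 0.07; limma adjusted p = 0.0375).

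Foxo4 had a change of 0.20 (SE 0.05; 95% interval 0.09 to 0.31) in the opposite direction that did not pass (limma adjusted p = 0.0843). Ccng2, Klhl24 and Bmf, the genes that were lower with CHIR99021, had changes of -0.10, -0.07 and -0.06 with XAV939, with intervals from -0.24 to 0.09 that included 0. Foxo3 had 0.10, Irs2 -0.04, Foxo1 0.01 and Pik3ip1 0.01. Whether the XAV939 change of Sgk1 and Cited2 differs from that of Ccng2, Klhl24 and Bmf was not tested. At an unadjusted p under 0.05, limma found 1 of the 10 genes higher and 2 lower, against 16.9% of all genes.

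The Cited2 fall kept its call in 10 of 20 alternatives, among them quantile, cyclic loess and median-centred values (limma adjusted p between 0.0313 and 0.0359). It was lost when replicate 2 or 3 of the untreated cells, 1 or 2 of CHIR99021, 2 or 3 of both compounds, or any XAV939 array was left out (limma adjusted p between 0.0556 and 0.0923). Axin2 passed in 9 of 20 alternatives. The number of all genes called in this comparison, 42 higher and 24 lower, changed to 4 and 10 with quantile normalization, 3 and 10 with cyclic loess, and was 64 and 23 with median centring. The standard deviation of values ranged from 2.14 to 2.21 over the arrays, lowest in untreated replicate 3 and XAV939 replicate 2, and its part in these counts was not tested.

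Seen without and with CHIR99021, the XAV939 change of Cited2 was -0.16 and -0.47, and that of Sgk1 -0.16 and -0.49. For Ccng2 it was -0.15 and -0.05, for Klhl24 -0.12 and -0.03, and for Bmf -0.14 and 0.02. Foxo4 had 0.29 and 0.11. With both compounds against untreated cells, Sgk1 was higher by 0.28 (95% interval 0.06 to 0.49) and Cited2 by 0.22 (0.07 to 0.38), while Ccng2, Klhl24 and Bmf had changes of -0.49, -0.47 and -0.50, close to those with CHIR99021 alone. XAV939 arrays did not overlap untreated ones for 2 of the 10 genes upward, Foxo1 and Foxo4, and 2 downward, Cited2 and Klhl24, against 9.48% and 8.17% of all genes. With both compounds against CHIR99021 alone, Sgk1 and Cited2 were lower without overlap (7.18% of all genes), and the other 8 overlapped. These pairs share arrays with the comparison that chose the genes, so they are given with no test, and the difference between these responses was not tested either.

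**Figure D3:**
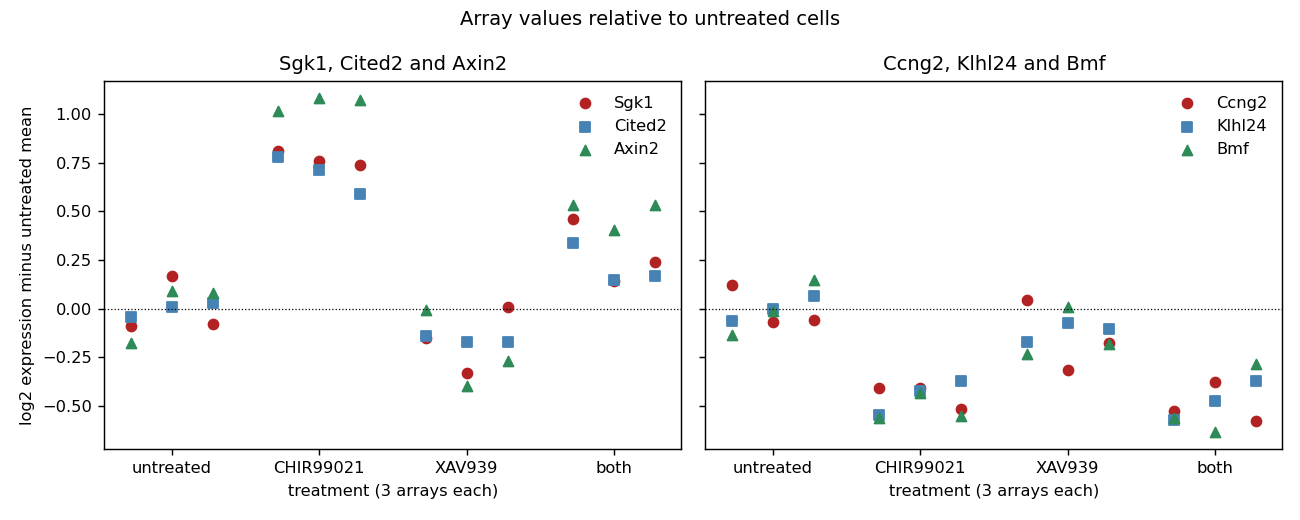
Log2 expression of 6 genes in each array (points) minus the gene's untreated mean (vertical axis), by treatment (horizontal axis). Sgk1, Cited2 and Axin2 are below their CHIR99021 level in every array with both compounds, while Ccng2, Klhl24 and Bmf are at similar levels in both groups given CHIR99021.

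Among 9968 other genes with a mean above the median of all genes, Cited2 had the pattern most like that of Sgk1 over the 12 arrays (Pearson r = 0.964), followed by the zinc finger gene Zfp677 (0.962), Axin2 (0.954), Asb1 (0.953) and Peli1 (0.95). Nearest to Ccng2 were Lrrn4 (0.894), Hbp1 (0.884), Gne (0.876), Zkscan14 (0.869) and Pklr (0.868). Zfp677 had changes of 0.74 with CHIR99021, 0.48 with both against XAV939 and -0.34 across XAV939, and Hbp1, a transcriptional repressor, of -0.40, -0.31 and 0.04. These values mostly reflect differences between the 4 groups, since all arrays of a group share their treatment, and they are a description only. Sgk1 and Cited2 were both chosen for a rise with CHIR99021, and Ccng2, Klhl24 and Bmf for a fall. Likeness within each of these sets over the 12 arrays is thus partly built in by the choice. Klhl24 and Bmf had r = 0.95 over the 12 arrays, and 0.71 after each group's mean was subtracted. Sgk1 and Cited2 had 0.51 after that subtraction. Ccng2 ran with Klhl24 (0.79) and Bmf (0.66) over all arrays but had r = -0.56 and -0.69 with them within groups.

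Other genes around this pathway were read from 8 lists. The lists overlap in a few genes, such as Bbc3 and Irs4. Of 30 measured FoxO targets other than the 10 genes, limma called none with CHIR99021 against untreated, where 0.421% of all genes were called, and none with both compounds against XAV939. At an unadjusted p under 0.05, 2 were higher and 5 lower in the first comparison, where 10.3% of all genes passed, and 2 were higher and none lower in the second, where 9.69% did. The median change was -0.02 in each, against -0.01 and -0.00 for all genes. Gadd45a, a stress and DNA repair gene, had the smallest p with CHIR99021 (0.39, SE 0.09; limma adjusted p = 0.0866), and Klf2, a zinc finger factor, with both against XAV939 (0.24, SE 0.07; limma adjusted p = 0.204). Across XAV939, S1pr1, a sphingosine-1-phosphate receptor gene whose mean of 4.86 lay below the background measure, fell by 0.37 (SE 0.07) with a limma adjusted p of 0.0438. It missed the threshold in 13 of 19 alternatives, where the adjusted p reached 0.103. There, 6 of the 30 FoxO targets were higher and 4 lower at an unadjusted p under 0.05, against 16.9% of all genes.

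Of 22 measured genes of the insulin and IGF receptors, PI3K, AKT, mTORC2 and GSK3, none was called in any of the 3 comparisons. At an unadjusted p under 0.05, limma found 1 higher and 1 lower with CHIR99021, 3 higher with both against XAV939 and 4 higher across XAV939, of 22 genes each, against 10.3%, 9.69% and 16.9% of all genes. Irs4, a relative of Irs2, had the smallest p with CHIR99021 (-0.29, SE 0.11; limma adjusted p = 0.333). Pik3cd, a catalytic subunit of PI3K, had it with both against XAV939 (0.29, SE 0.09; adjusted p = 0.232). Igf1r, the IGF1 receptor, had it across XAV939 (0.33, SE 0.07; adjusted p = 0.0518). The median changes were 0.02, 0.05 and 0.04, against -0.01, -0.00 and -0.00 for all genes.

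No close relative of the 10 genes passed the test. Of 10 relatives (Sgk2, Sgk3, Cited1, Cited4, Ccng1, Klhl6, Foxo6, Irs1, Irs4 and Bcl2l11), limma called none in the 3 comparisons, and at an unadjusted p under 0.05 it found 2 lower with CHIR99021, none with both against XAV939 and 2 lower across XAV939, where 10.3%, 9.69% and 16.9% of all genes passed. Bcl2l11, which encodes the BH3-only protein BIM, had the smallest p with both against XAV939 (-0.17, SE 0.10; limma adjusted p = 0.596), and Foxo6 across XAV939 (-0.13, SE 0.06; adjusted p = 0.285).

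Among 15 measured genes of the BCL2 family and BMF's partners, none was called by limma, with 2 higher and 2 lower at an unadjusted p under 0.05 with CHIR99021, 1 and 1 with both against XAV939, and 4 and 1 across XAV939. The shares of all genes were 10.3%, 9.69% and 16.9%. Bbc3, which encodes the BH3-only protein PUMA, had changes of -0.35 (SE 0.10; limma adjusted p = 0.164) with CHIR99021 and 0.21 (SE 0.07; adjusted p = 0.142) across XAV939. Bcl2, an anti-apoptotic gene, had -0.37 (SE 0.10; adjusted p = 0.17) with both against XAV939.

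Of 6 SGK1 substrates and regulators, 9 CITED2 binding partners and 14 hypoxia targets, none was called by limma in any of the 3 comparisons. At an unadjusted p under 0.05, the counts higher and lower were 0 and 0, 2 and 0, and 0 and 0 with CHIR99021. They were 1 and 0, 1 and 0, and 1 and 0 with both against XAV939, and 2 and 0, 1 and 1, and 3 and 3 across XAV939. Of all genes, 10.3% passed so in the first comparison, 9.69% in the second and 16.9% in the last. The smallest p with CHIR99021 belonged to Ndrg2 (-0.11), Epas1 (0.24) and Pgk1 (-0.24), with both against XAV939 to Stub1 (0.18), Tfap2c (0.24) and Pdk1 (0.33), and across XAV939 to Tsc22d3 (0.26), Ep300 (0.16) and Egln3 (-0.24).

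Among 10 genes that respond to glucocorticoids, as Sgk1 is known to, limma called 1 with CHIR99021, Ddit4, where 0.421% of all genes were called. At an unadjusted p under 0.05, limma found 1 higher and 1 lower, against 10.3% of all genes. The lower gene was Dusp1, a phosphatase of MAP kinases (-0.37, SE 0.10, limma adjusted p = 0.168). Ddit4, an inhibitor of mTORC1 signalling, rose from 9.47 ± 0.09 (SD, n = 3) to 9.99 ± 0.08, a change of 0.52 (SE 0.09, limma adjusted p = 0.014). It was also high without CHIR99021, at 9.94 ± 0.17 with XAV939 alone, and stood at 10.13 ± 0.08 with both. Its change with both against XAV939 was 0.19 (SE 0.09, limma adjusted p = 0.5). Leaving out replicate 3 of the untreated cells or replicate 1 of CHIR99021 moved the call with CHIR99021 past the threshold (limma adjusted p = 0.0866 and 0.0715). With both against XAV939 none was called. There, limma found 1 higher and 1 lower at an unadjusted p under 0.05 (9.69% of all genes). Dusp1 had the smallest p (-0.36, SE 0.10, limma adjusted p = 0.231). Across XAV939 none was called, with 3 higher and 1 lower at an unadjusted p under 0.05 (16.9% of all genes), and Ddit4 had a change of 0.31 (limma adjusted p = 0.051). Ddit4 was placed in this list alone, so the counts of the other lists leave it out.

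**Figure D4:**
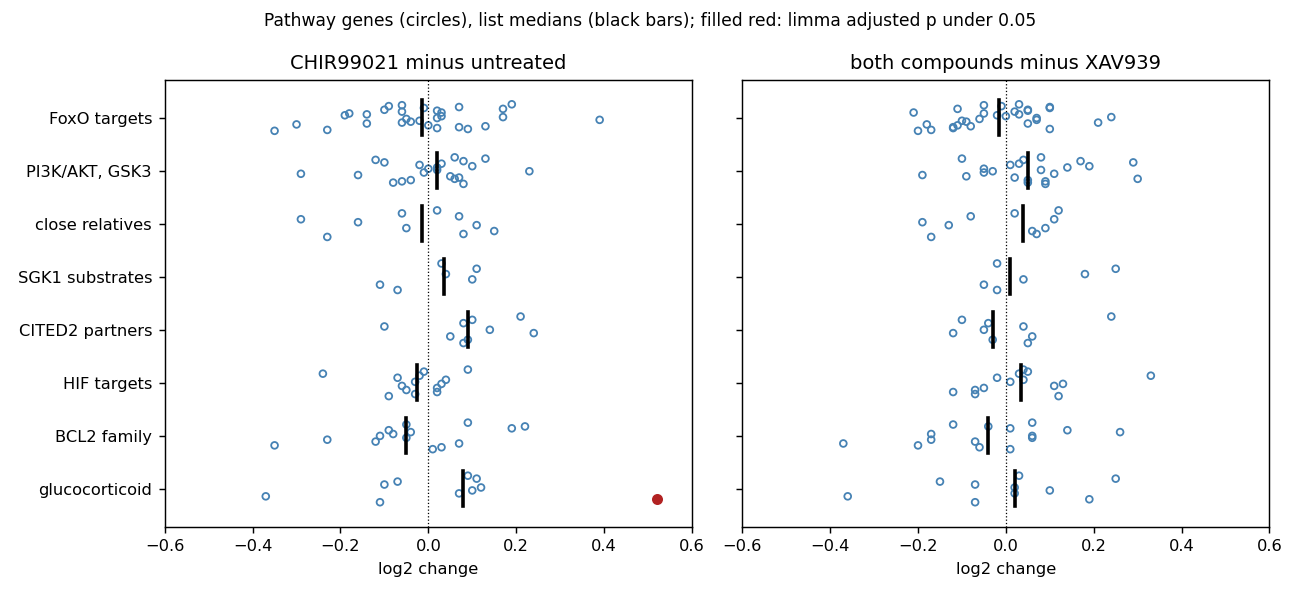
Changes in log2 expression (horizontal axis) of the measured genes (circles) of 8 pathway lists (rows), with list medians as black bars, for CHIR99021 against untreated (left) and both compounds against XAV939 (right). Ddit4, at 0.52 on the left, is the gene that passed limma's test; list medians lie between -0.05 and 0.09.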

How the data were processed

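Total RNA of 12 samples was labelled with biotin by a standard Affymetrix procedure, per the labels' protocols. The authors deposited 1 log2 value per probe and array, between 2.52 and 14.3. The submitters' processing notes name Partek; background correction and normalization are not given in the sources used here. Medians of the arrays were 5.22 to 5.27, so values were used as deposited. With 3 arrays in each group, their number sets the precision.

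Of 35399 probes, 21789 carried a single gene name. Of these, 91 found no match by gene identifier in the RefSeq table of GRCm38.p6 and kept the array's gene name. A gene was read from its probe of highest mean (999 genes had several), giving 19938 genes with no filter. Groups came from the sample titles. Group means of all arrays entered 1 limma fit (version 3.58.1, R 4.3.3; lmFit and eBayes, two-sided), with Benjamini-Hochberg adjustment over all genes per contrast and calls at an adjusted p under 0.05. Simulated data had independent normal noise for each gene and 200 genes changed by 0.5 or 1. There, 78% of changes of 0.5 were recovered for both compounds against XAV939, with 3.26% false calls. For CHIR99021 against untreated 72% were recovered with 1.72% false calls, and across XAV939 98% with 5.26%. Changes below 0.5 and variation shared between genes were not simulated.

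The 10 genes and all lists were chosen with earlier results of these data known. Besides these genes, the text names the called genes of each list or the 1 with the smallest p, Axin2, and the 5 genes most correlated with Sgk1 and with Ccng2. Some list genes are not reported here. Alternatives were quantile, median and cyclic loess normalization, a filter at the median expression, the probe mean, robust eBayes with a trend, array weights, a fit to the compared groups alone, a replicate block, and leaving out each array.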

Additional observations from a re-analysis of the deposited data

How the results depend on the processing

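The 5 genes that led the choice kept their direction with both compounds against XAV939 in all 21 alternatives. That comparison shares no array with CHIR99021 against untreated. Several alternatives could not move these changes, so their kept direction adds nothing. They were leaving out an untreated or CHIR99021 array, the filter, the probe mean, trend and robust settings, the smaller fit and the replicate block. In each of them Sgk1 stayed at 0.43 and Cited2 at 0.38. Over all 21 alternatives, Sgk1 lay between 0.34 and 0.51 and Cited2 between 0.32 and 0.42. Ccng2 lay between -0.43 and -0.25, Klhl24 between -0.40 and -0.31 and Bmf between -0.46 and -0.29. Calls were less firm. Of the 10 genes, 1 was called with both compounds against XAV939; it was 2 with a filter at the median expression and with trend and robust settings, 0 in the fit to the compared groups alone and 0 without any 1 array. With quantile and cyclic loess normalization the 1 gene was Klhl24 in place of Cited2. Across XAV939, 1 was called, 3 with the filter and with array weights, and between 0 and 1 without single arrays. Of all genes, 47 were called with both compounds against XAV939 and 21 to 50 without single arrays (21 when XAV939 array 1 was dropped, 26 for XAV939 array 2, 27 for array 2 of both compounds and 24 for its array 3), 84 with CHIR99021 and 34 to 97 without single arrays (44, 49 and 34 without untreated replicates 1, 2 and 3, 35 and 45 without CHIR99021 replicates 2 and 3), and 66 across XAV939, which became 14 with quantile normalization, 13 with cyclic loess, 237 with the filter, 255 with array weights and 2 to 66 without single arrays. Only leaving out untreated replicate 1 kept that last count at 66; without any other single array it was 35 or fewer. List genes called across XAV939, 1 in all, numbered 0 with quantile and cyclic loess normalization, 3 with median centring and with trend and robust settings, 4 with the filter and with array weights, and 0 to 2 without single arrays; with CHIR99021 they numbered 0 to 1 without single arrays. Changes near 0 turned sign: Foxo1 across XAV939 was -0.03 with quantile normalization, -0.04 with cyclic loess and -0.04 to 0.03 without single arrays, Pik3ip1 with both against XAV939 was 0.01 with quantile and with cyclic loess normalization and -0.06 to 0.03 without single arrays, and across XAV939 -0.02 to 0.03. Irs2 ranged from -0.17 to 0.01 with both against XAV939 and from -0.08 to 0.01 across XAV939 without single arrays. The filter left Pik3ip1 untested, and across XAV939 all groups enter, so no smaller fit was made. Causes were not tested.

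The deviations of same-numbered arrays had a median correlation of 0.01, and those of different-numbered arrays -0.01. Of same-numbered pairs, 6 of 18 were above 0.1, and of different-numbered pairs 8 of 36. The numbers were not taken as pairs. With the replicate block, 0 of the 10 genes and 0 list genes were called with both against XAV939 and across XAV939, and 3 of all genes across XAV939. The adjusted p of Cited2 (limma) was then 0.0671 and 0.0585.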
